A study of Homo sapiens with 7 samples.

Results

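The chromosome 19 clusters of KRAB zinc-finger genes were examined as 7 windows (GRCh37): 9.2 to 9.9 Mb, 11.6 to 12.8 Mb, 19.7 to 24.3 Mb, 36.6 to 38.4 Mb, 44.3 to 45 Mb, 52.3 to 54.1 Mb and 56.5 to 59.1 Mb, numbered 1 to 7 in that order. A chromatin loop was counted in a window when the midpoint of at least 1 of its anchors, the 2 DNA segments it joins, lay there. By that rule 4200 of the 135475 loops in 7 lists, or 3.1%, were window loops. The rule uses positions only and no count. None of these loops joined one window to another.

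KRAB zinc-finger proteins form the largest family of DNA-binding transcription factors in mammals. Their KRAB domain recruits TRIM28 (KAP1), which brings histone methylation and silencing, and many of them bind transposable elements. The genes arose by tandem duplication, and so lie in clusters of related copies, many of them on human chromosome 19. ZNF143 is itself a zinc-finger protein, without a KRAB domain, that binds near the start sites of many genes. CTCF binds DNA at sites that stop loop extrusion by cohesin, the ring complex of which RAD21 is a subunit.

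Loops were mapped by HiChIP, in which neighbouring DNA ends are ligated in fixed cells and the products that carry a protein of interest are pulled down with an antibody. All 7 libraries came from the uterine adenocarcinoma line HEC-1-B or from cells derived from it, with 1 library in each group. Wild-type cells were taken through HiChIP with antibodies to ZNF143, CTCF and RAD21, and ZNF143KO cells, in which the ZNF143 gene is disrupted, with antibodies to CTCF and RAD21. CTCF-AID cells carry CTCF fused to a degron, so that auxin (IAA) leads to its breakdown, and express TiR1 for that purpose. They were analysed with the ZNF143 antibody at 0 h and 24 h of auxin. Whether the derived lines are single clones, and how much CTCF was left at 24 h, was not given in the sources used here. Because no group had a replicate, differences were not tested and carry no p-value. Each 95% interval covers counting error only, and it is too narrow, since neighbouring loops often use the same anchor.

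Promoter sequence is shown first because zinc-finger gene promoters of some windows, and few of others, carried part of the ZNF143 motif. The RefSeq promoter table (GRCh38.p14, 250 bases before to 50 after each start, 35116 promoters of 27305 genes) was searched on both strands for 4 forms: ACTACANNTCCC and ACTACAATTCC for the 5′ part of the motif, and CCCAGNATGC and CCCANAATGC for the 3′ part. These forms overlap where they match the same bases. Below, 30 bases are printed 5′ to 3′ on the strand of the match, with ACTACANNTCCC in capitals and 9 bases on each side in lower case. They were picked, after the matches were seen, to show each window that has a match: 1 gene of window 1, 4 of window 4, 4 of window 5, 1 of window 6 and 4 of window 7.
ZNF317: aacttcaaaACTACAATTCCCagcatcctc
ZNF420 (first match): aagcgctggACTACATTTCCCagaggcacg
ZNF420 (second match): gagcgctggACTACATTTCCCagaggcacc
ZNF568: ccgctctggACTACATTTCCCagagggcct
ZNF569: ctgcgccgaACTACATTTCCCagaggcctt
ZNF573: taggcttaaACTACATTTCCCagagggcaa
ZNF45: agctctggaACTACATTTCCCagcatcccc
ZNF224: agcgtctggACTACACTTCCCagaattccc
ZNF225 (first match): agcgtctggACTACATTTCCCagaaatccc
ZNF225 (second match): agcgtctggACTACACTTCCCagaattccc
ZNF234: attggcgggACTACATTTCCCagaattccc
ZNF331: gggttatggACTACATTTCCCagaggcctc
ZNF470: ccgttccggACTACACTTCCCaggggctat
ZNF584: gggacgtgaACTACATTTCCCataaggagc
ZNF8: gacgcggcgACTACAACTCCCagtaggccg
ZSCAN22 (first match): ccaacgtcaACTACAATTCCCagcaggcac

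ACTACANNTCCC was found in the promoters of 14 of 27 zinc-finger genes of window 4 (51.9%, 95% Wilson interval 34 to 69.3) and 9 of 15 of window 5 (60%, 35.8 to 80.2). In window 7 it was found in 7 of 57 (12.3%, 6.08 to 23.3). Windows 1 and 6 held 1 such gene each, of 10 and of 33. Windows 2 and 3 held none, of 23 and of 27 genes, with upper limits of 14.3% and 12.5%. Over all windows the share was 32 of 192 genes (16.7%), against 30 of 324 zinc-finger genes elsewhere (9.26%), 30 of 953 other coding genes of chromosome 19 (3.15%) and 586 of all 27305 genes (2.15%). The other 3 forms were rare in the windows, with 4, 2 and 3 of the 192 genes, and in all genes, with 0.289%, 0.97% and 0.776%. Attention was drawn to ACTACANNTCCC after the counts of the 4 forms were seen. A match is a description of these letters and not a bound site.

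The first base of every match lay before the start, within the 250 bases searched there, and fewer bases were searched after it. A match is 12 bases long, so those nearest a start may run past it. The 32 genes carried 37 matches, whose first bases stood 7 to 241 bases before the nearest listed start, with a median of -78. In window 5 all 10 matches were on the strand opposite the gene, while in window 4 there were 8 on each strand. ZNF420, ZNF790, ZNF225, ZNF444 and ZSCAN22 carried 2 matches each. The printed 30 bases of ZNF224 and of the second match of ZNF225 were identical. Bases next to the match were alike in other printed stretches too, such as those of the 2 ZNF420 matches. Over 40 bases on each side of the match, compared base by base without gaps, the median identity between 2 sites was 33.8% in window 4, 40% in window 5 (highest 82.5%) and 32.5% in window 7. Such a value falls with any insertion or deletion, and how related the wider flanks are was not tested. ZNF345 and ZNF790 shared 1 site between their starts, as did ZNF568 and ZNF829.

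Window loops took a larger share of each ZNF143 list than of any CTCF or RAD21 list. The wild-type ZNF143 list had 650 window loops of 11981 (5.43%, 5.03 to 5.85). CTCF had 89 of 19313 (0.461%, 0.375 to 0.567) and RAD21 had 80 of 16788 (0.477%, 0.383 to 0.593). In ZNF143KO cells there were 55 CTCF window loops of 15597 (0.353%) and 49 RAD21 window loops of 10804 (0.454%). CTCF-AID cells had 1682 ZNF143 window loops of 40405 at 0 h (4.16%) and 1595 of 20587 at 24 h (7.75%). The 3 ZNF143 lists thus lay between 4.16% and 7.75%, and the 4 CTCF and RAD21 lists below 0.5%, with no overlap. The rest of chromosome 19 split the same way, with 15.5% to 20.8% of the ZNF143 lists and 4.44% to 5.41% of the others.

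Set against the rest of chromosome 19, CTCF and RAD21 loops were thinner in the windows, and ZNF143 loops differed less. The windows cover 13.4 Mb and the rest, from the first to the last listed anchor, 45.5 Mb. Loops per Mb in the windows over loops per Mb in the rest came to 0.958 (0.877 to 1.05) for wild-type ZNF143, 0.289 (0.23 to 0.359) for CTCF and 0.364 (0.285 to 0.459) for RAD21. The ZNF143 value pools windows of 1.52 to 154 loops per Mb. Windows 4, 5 and 7 lay above the rest, which held 2301 wild-type ZNF143 loops, and windows 1, 2, 3 and 6 lay below it. Counting only loops with both anchors inside, the ZNF143 value was 0.746 (0.676 to 0.822). Window loops were also longer. The median span between anchor midpoints was 288 kb in the windows and 146 kb in the rest for wild-type ZNF143, 154 kb and 104 kb for CTCF, and 180 kb and 102 kb for RAD21. The largest medians were those of the CTCF-AID lists, 430 kb at 0 h and 539 kb at 24 h, against 206 kb and 268 kb in the rest.

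The 7 windows fell into unlike kinds. In the wild-type ZNF143 list, windows 1 to 7 held 3, 13, 7, 163, 108, 15 and 341 loops. Windows 4, 5 and 7, grouped after these numbers were seen, therefore held 612 of 650, or 94.2% (92.1 to 95.7). Wild-type CTCF loops were spread differently, with 12, 24, 3, 10, 1, 15 and 24 loops in the same order, and 39.3% (29.8 to 49.7) in windows 4, 5 and 7. RAD21 followed CTCF, with 13, 22, 2, 10, 0, 19 and 14 loops and 30% (21.1 to 40.8) in those 3 windows. Both CTCF-AID lists had the wild-type ZNF143 pattern, with 22, 50, 28, 378, 273, 84 and 847 loops at 0 h and 10, 25, 33, 393, 279, 86 and 769 at 24 h, and 89.1% and 90.3% in windows 4, 5 and 7.

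**Figure D1:**
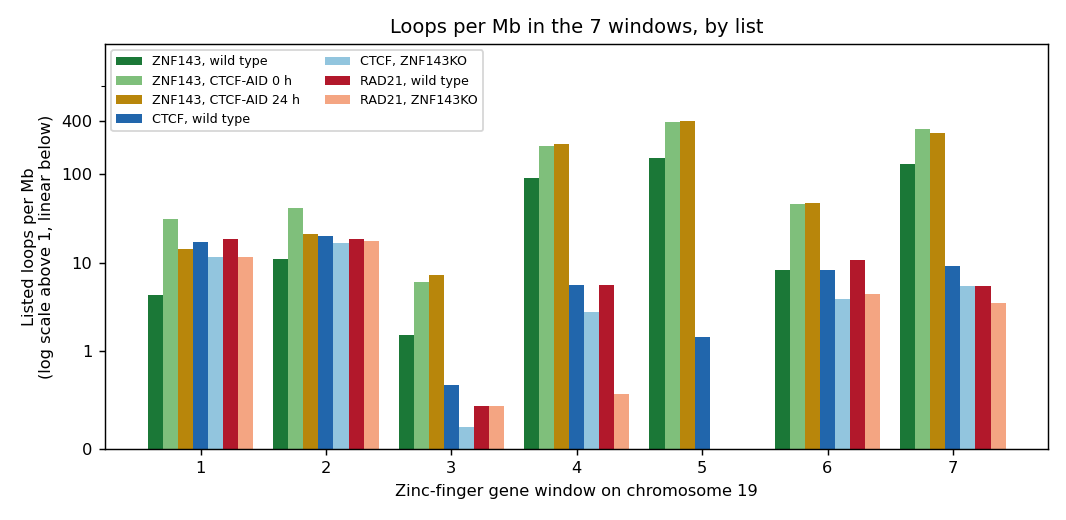
Listed loops per Mb of each window (vertical axis, logarithmic above 1 and linear below), 1 bar per list and 1 group of bars per window. Wild-type ZNF143 reached 154 loops per Mb in window 5 and 1.52 in window 3, while wild-type CTCF lay between 0.652 and 20 and had its highest bar in window 2.

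Per Mb, wild-type ZNF143 loops ranged from 1.52 in window 3 to 154 in window 5, with 131 in window 7 and 90.6 in window 4. CTCF ranged from 0.652 in window 3 to 20 in window 2. Window 2 was the only one in which the wild-type CTCF and RAD21 lists, with 24 and 22 loops, and both ZNF143KO lists, with 20 and 21, each reached 20 or more. The ZNF143 motif counts above ran partly alongside. Windows 4, 5 and 7, grouped by their loop numbers, together had 30 of 99 zinc-finger genes with ACTACANNTCCC (30.3%, 22.1 to 40). Windows 1, 2, 3 and 6 had 2 of 93 (2.15%, 0.592 to 7.51). Window 7 had a loop density between those of windows 4 and 5 and a lower share of genes with the motif. Its share of 12.3% was near that of window 1, at 1 of 10 genes (10%), where the density was 4.29 loops per Mb against 131. With only 7 windows no relation was tested.

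**Figure D2:**
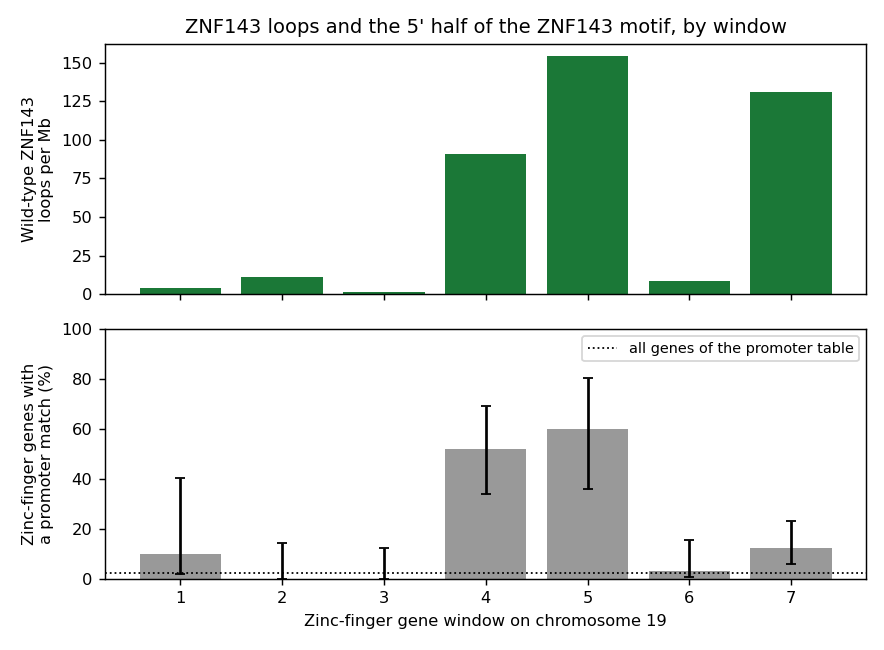
Upper panel, wild-type ZNF143 loops per Mb in each window. Lower panel, share of zinc-finger genes with ACTACANNTCCC in a promoter, with 95% Wilson intervals and a dotted line at the 2.15% of all genes; windows 4 and 5 are high in both panels and windows 2 and 3 low in both.

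The longest cluster was nearly bare in every list. Window 3, at 4.6 Mb, had only 15 anchors when overlapping anchors of all 7 lists were merged, or 3.26 per Mb, against 21.4 to 40 per Mb in the other 6. Its longest stretch without an anchor was 1337 kb (chr19:22131734-23468914). The stretch without anchors that contains the centromere, chr19:23624374-27748596, took in the end of the window. The best supported ZNF143 loop of window 3 joined chr19:19886512-19888143 to chr19:20162299-20163939, with counts of 4 in wild-type cells, 19 at 0 h and 24 at 24 h. The second of those anchors was the most joined one of the window, with 5, 14 and 14 loops in the same lists and 0 in the CTCF and RAD21 lists. Of the 3 wild-type CTCF loops of window 3, the best supported lay at its near edge, where chr19:19662550-19665935 joined chr19:19754190-19755574 with counts of 6 for CTCF and 4 for RAD21 in wild-type cells and 4 for CTCF in ZNF143KO cells.

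Anchors seen only by ZNF143 were more common in the windows than elsewhere on the chromosome. Merging gave 273 window anchors, of which 159 appeared only in ZNF143 lists (58.2%, 52.3 to 63.9), 46 only in CTCF or RAD21 lists and 68 in both kinds. In the rest of chromosome 19, 863 of 1994 merged anchors appeared only in ZNF143 lists (43.3%, 41.1 to 45.5). Window 5 was the extreme, with 21 of its 22 anchors in ZNF143 lists alone and the other in both kinds. Window 2 was the opposite, with 19 of 37 anchors in CTCF or RAD21 lists alone. The share in ZNF143 lists alone was 24.3% in window 2 and 40% in windows 1 and 6, below that of the rest. The ZNF143 lists hold more loops in all, which touches these shares, and that part was not tested.

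A few anchors in windows 4, 5 and 7 took part in very many ZNF143 loops. The most joined window anchor, chr19:56651574-56654677 in window 7, was an end of 44 wild-type ZNF143 loops, 72 at 0 h and 68 at 24 h, and of none in the 4 CTCF and RAD21 lists. Next came chr19:44616273-44618372 in window 5, with 38, 58 and 53 loops, and chr19:36704648-36707254 in window 4, with 31, 62 and 53, again with none in the other lists. Window 7 held the next 3: chr19:58836404-58841446 with 38, 52 and 48 loops, chr19:57945703-57947438 with 29, 55 and 53, and chr19:56825429-56827267 with 27, 49 and 52. Of these 6 anchors only the one at 58836404 appeared in a CTCF or RAD21 list, with 2 RAD21 loops in ZNF143KO cells. Over all merged anchors of chromosome 19 ranked by their loops in the 7 lists, the 6 stood at ranks 5, 13, 14, 17, 20 and 23.

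In the other windows the most joined anchors were smaller and of 2 kinds. Those of window 1, chr19:9735911-9737405, and window 2, chr19:12674403-12675941, were ends of 6 and 7 wild-type CTCF loops, 4 and 5 RAD21 loops, and 1 and 3 wild-type ZNF143 loops. That of window 6, chr19:54022829-54025040, was a ZNF143 anchor with 8, 25 and 31 loops in the 3 ZNF143 lists and 0 in the others. It lay 0.0761 Mb from the end of window 6 and took part in 8 of the 15 wild-type ZNF143 loops there. ZNF331 was the only gene of window 6 with an ACTACANNTCCC promoter, and it was the last of 40 zinc-finger genes in RefSeq order. No anchor was assigned to a gene, since no annotation of the files' own build was used here.

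Not every pair of anchors was joined. Of all pairs of wild-type ZNF143 anchors of window 5 that could form a listed loop (20 kb to 2 Mb apart), 55 of 132 were joined, or 41.7%. The share was 28.9% in window 4 (124 of 429) and 12.3% in window 7 (310 of 2512), where the number of possible pairs was far larger. In window 3 it was 4 of 6. Wild-type CTCF joined 23 of 76 possible pairs in window 7 (30.3%), a larger share than ZNF143 there on 18 anchors against 77, and 5 of 34 in window 4 (14.7%). At 0 h the same shares were 48.5%, 34.1% and 21.2% in windows 5, 4 and 7, and at 24 h 62.6%, 58.9% and 35.8%, on fewer anchors (21 and 17 in window 5, 36 and 25 in window 4, 89 and 65 in window 7). The median wild-type ZNF143 anchor took part in 4 loops in the windows and 2 in the rest of the chromosome. At 0 h the medians were 8 and 6, and at 24 h 14 and 7.

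**Figure D3:**
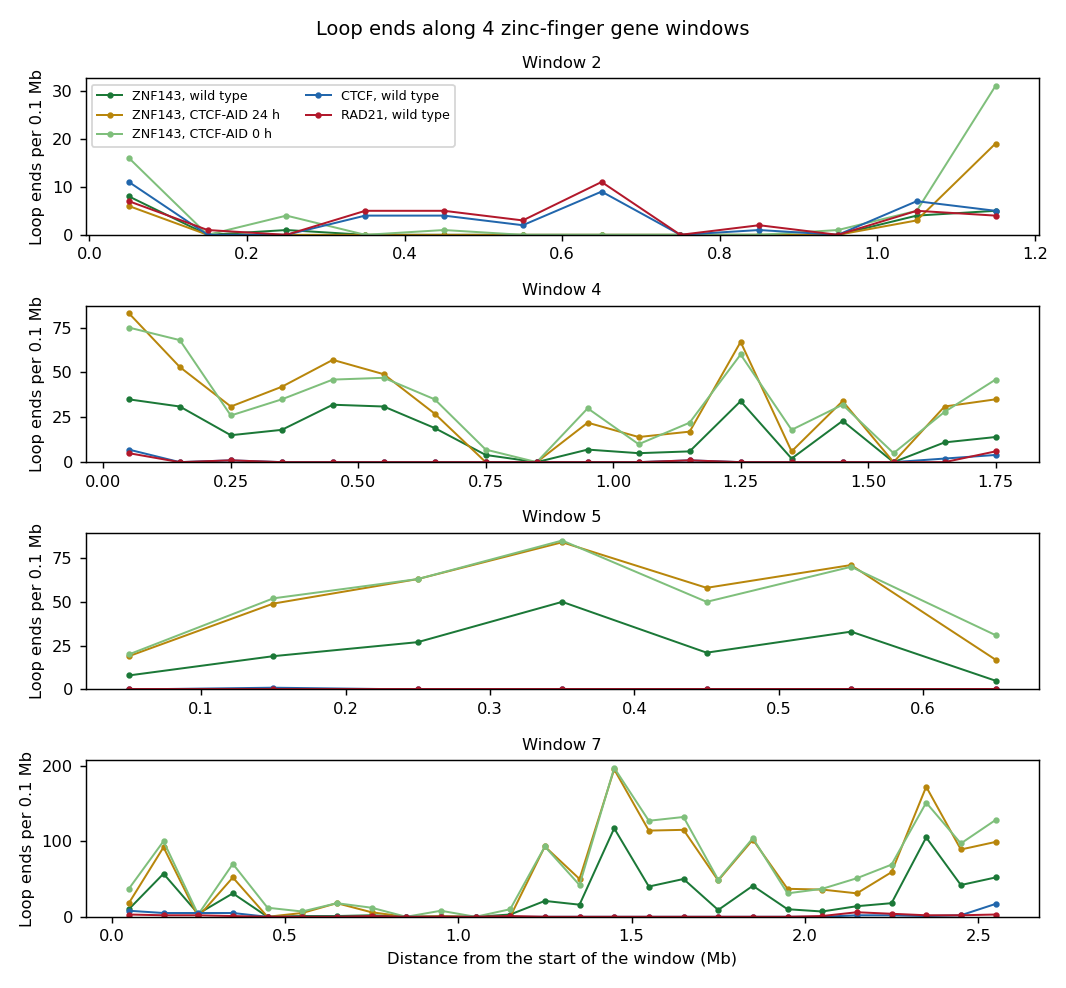
Loop ends per 0.1 Mb (vertical axes, linear and scaled to each panel) along windows 2, 4, 5 and 7, by distance from the start of the window in Mb, for the 3 ZNF143 lists and wild-type CTCF and RAD21. In windows 4, 5 and 7 the ZNF143 lines rise at the same places in all 3 lists while CTCF and RAD21 stay near 0 over most of their length, and in the middle of window 2 only CTCF and RAD21 rise.

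The ends of ZNF143 loops were not spread evenly inside the dense windows. In window 7, 117 loop ends of the wild-type list fell in 1 bin of 0.1 Mb centred 1.45 Mb from its start and 105 in the bin centred at 2.35 Mb, and the 0 h and 24 h lists had their 2 highest bins at the same places, with 197 and 151 ends at 0 h and 195 and 172 at 24 h. Between 0.4 and 1.1 Mb of that window the wild-type list had at most 2 ends in any bin. CTCF ends of window 7 were highest, at 17, in the last 0.1 Mb.

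Wild-type ZNF143 loops of windows 4, 5 and 7, which make up most of the window loops, seldom coincided with CTCF or RAD21 loops. Loops of 2 lists were matched when the anchors at both ends, extended by 5 kb, overlapped. Of the 650 wild-type ZNF143 window loops, 19 were found among wild-type CTCF loops (2.92%, 1.88 to 4.52), against 12.7% of 2301 in the rest of chromosome 19 and 19% of the whole list. The difference between windows and the rest of the chromosome was -9.77 percentage points (-11.5 to -7.71). Among RAD21 loops 10 were found (1.54%, 0.838 to 2.81), against 9.78% in the rest and 16.3% of the whole list, a difference of -8.24 points (-9.7 to -6.53). Both differences were smaller among better supported loops: at a minimum count of 3 they were -5.77 and -6.37 points, and at 10 they were -5.06 (-8.64 to 0.991) and -2.95 (-5.97 to 2.91), intervals that include 0. By window, the CTCF share was 7 of 163 in window 4, 0 of 108 in window 5 (upper limit 3.44%) and 8 of 341 in window 7. In window 2 it was 3 of 13 among CTCF and 3 of 13 among RAD21 loops (23.1%, 8.18 to 50.3), not below the rest, and windows 1, 3 and 6 had too few loops to tell.

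Seen from the other side, CTCF loops of the windows were not short of ZNF143 partners. Of 89 wild-type CTCF window loops, 18 were found among wild-type ZNF143 loops (20.2%, 13.2 to 29.7), against 25.5% in the rest of the chromosome and 12.8% of the whole CTCF list. In window 4 this was 6 of 10 and in window 1 it was 0 of 12. For RAD21 it was 9 of 80 (11.3%, 6.03 to 20), against 26.3% in the rest and 12.3% of the whole RAD21 list. In wild-type cells 42 of 89 CTCF window loops were found among RAD21 loops (47.2%, 37.2 to 57.5), against 44.3% in the rest of the chromosome, and 44 of 80 RAD21 window loops among CTCF loops (55%, 44.1 to 65.4), against 58.7%. In ZNF143KO cells 15 of 55 CTCF window loops were found among RAD21 loops (27.3%, 17.3 to 40.2), against 30.7%. There 12 of 49 RAD21 window loops were found among CTCF loops (24.5%, 14.6 to 38.1), below the 47.5% (43.1 to 51.9) of the rest.

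Single anchors differed in the same direction as whole loops. Of the 153 wild-type ZNF143 window anchors, 44 overlapped a wild-type CTCF anchor after the 5 kb extension (28.8%, 22.2 to 36.4), against 57.7% (54.7 to 60.7) of 1020 in the rest of the chromosome. In windows 4, 5 and 7 it was 28 of 124 (22.6%). For RAD21 anchors the shares were 27.5% in the windows and 51.1% in the rest.

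The best supported loops of the dense windows were ZNF143 loops, with next to no counts for CTCF or RAD21. In window 7, chr19:58815686-58817399 was joined to chr19:58836404-58839454 with counts of 72 in wild-type cells, 87 at 0 h and 128 at 24 h. The same second anchor was joined to chr19:58872665-58874613 with counts of 66, 108 and 130, and this loop was also listed with a count of 2 for RAD21 in ZNF143KO cells. In window 5 the loop from chr19:44616273-44618170 to chr19:44808491-44811240 had counts of 38, 76 and 121. In window 4 the loop from chr19:36979790-36981710 to chr19:37018117-37020591 had counts of 26, 100 and 147. All of these counts were higher at 24 h than at 0 h. Most of these loops had the highest 24 h count of their window and were named by that rule, which favours such a difference. The counts are not scaled to a common depth. Apart from the count of 2 just given, none of these 4 loops was listed for CTCF or RAD21.

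CTCF and cohesin had their own strongest loops, in windows 1 and 2. In window 1, chr19:9736077-9737405 was joined to chr19:9900192-9902981, just past the edge, with counts of 37 for CTCF and 46 for RAD21 in wild-type cells and 16 and 20 in ZNF143KO cells. It was in none of the ZNF143 lists. In window 2, chr19:12674403-12675941 was joined to chr19:12782265-12783641 with counts of 9 for CTCF, 3 for RAD21 and 2 for ZNF143 in wild-type cells, and 8 and 2 for CTCF and RAD21 in ZNF143KO cells. A RAD21 loop of window 2 from chr19:12074124-12077251 to chr19:12251546-12253709 had counts of 14 for RAD21 and 6 for CTCF, and 5 and 2 in ZNF143KO cells. Window 4 had 1 long CTCF and RAD21 loop of 948 kb, from chr19:36805702-36806943 to chr19:37753469-37754708. Its counts were 5 for CTCF and 2 for RAD21 in wild-type cells, and 6 and 7 in ZNF143KO cells.

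The first comparison asked how CTCF and cohesin loops differ in cells without ZNF143. CTCF window loops went from 89 in wild-type to 55 in ZNF143KO cells, a ratio of 0.618 (0.433 to 0.875), and RAD21 window loops from 80 to 49, a ratio of 0.613 (0.42 to 0.885). The lists were shorter everywhere, with CTCF ratios of 0.787 (0.717 to 0.863) in the rest of chromosome 19 and 0.81 on other chromosomes, and RAD21 ratios of 0.661 (0.589 to 0.742) and 0.643. The window ratio divided by that of the rest of the chromosome was 0.786 (0.544 to 1.13) for CTCF and 0.927 (0.624 to 1.36) for RAD21. Both intervals include 1. With both anchors inside windows the CTCF value was 0.55 (0.34 to 0.872), an interval below 1, and the RAD21 value 0.908 (0.574 to 1.42).

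Of the wild-type CTCF window loops, 66 of 89 were not found in ZNF143KO cells (74.2%, 64.2 to 82.1), against 58.9% in the rest of chromosome 19 and 60.9% of the whole list. The difference between windows and rest was 15.3 percentage points (4.92 to 23.8), and 38 of the 89 had the lowest listed count of 2. The interval took in 0 at a minimum count of 3 (12.6 points, -1.19 to 23) and in windows narrowed by 0.1 Mb (11.6 points, -1.05 to 21.8). Of the 55 ZNF143KO CTCF window loops, 31 had no wild-type counterpart (56.4%), against 52.9% of that list. For RAD21, 57 of 80 were not found (71.3%, 60.5 to 80), against 65% in the rest and 65.9% of the whole list, a difference of 6.24 points (-4.98 to 15.7), or 12 points (0.742 to 21.5) with an extension of 10 kb. New RAD21 loops were 30 of 49 (61.2%, 47.3 to 73.6), against 49.1% of that list. In both ZNF143KO lists the file layout also differed from that of the wild-type list with the same antibody, so list making and genotype cannot be told apart.

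By window, CTCF loops went from 24 to 20 in window 2, from 15 to 7 in window 6, from 24 to 14 in window 7 and from 10 to 5 in window 4. RAD21 loops went from 22 to 21 in window 2, from 19 to 8 in window 6 and from 10 to 1 in window 4. Except for RAD21 in window 4 (ratio 0.1, 0.0023 to 0.703), the interval of each of these single-window ratios included 1. The CTCF window loops missing in ZNF143KO cells with the highest counts, 7 and 6, both lay at the end of window 7. The first joined chr19:59028834-59032198 to chr19:59083867-59085123 with a CTCF count of 7, and was listed for ZNF143 with counts of 7 in wild-type cells, 19 at 0 h and 14 at 24 h. The other joined chr19:59024879-59026090 to chr19:59050356-59056477. Loops with a count of 5 were missing both there, from chr19:59028834-59032198 to chr19:59050356-59056477, and in window 6, from chr19:52313046-52314426 to chr19:52740049-52742020. The window 6 loop went the other way for RAD21, with a count of 4 in ZNF143KO cells and no listing in wild-type cells. Among RAD21 loops missing in ZNF143KO cells, 3 had a count of 7, of which the loop from chr19:38392594-38394097 in window 4 to chr19:38585876-38587126 was also a CTCF loop, whose count was 7 in wild-type and 2 in ZNF143KO cells. Another, from chr19:58691917-58695024 to chr19:59028834-59032198 in window 7, went the other way for CTCF. Its CTCF count was 3 in ZNF143KO cells, and it was not listed for CTCF in wild-type cells.

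Of the loops listed in ZNF143KO cells and not in wild-type cells, the best supported were a RAD21 loop of window 2 from chr19:12674403-12675941 to chr19:12720918-12722319 and one of window 1 from chr19:9754707-9756984 to chr19:9900192-9901565, each with a count of 7. Both shared an anchor with a strong loop of wild-type cells described above. The new CTCF window loops had counts of at most 4.

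**Figure D4:**
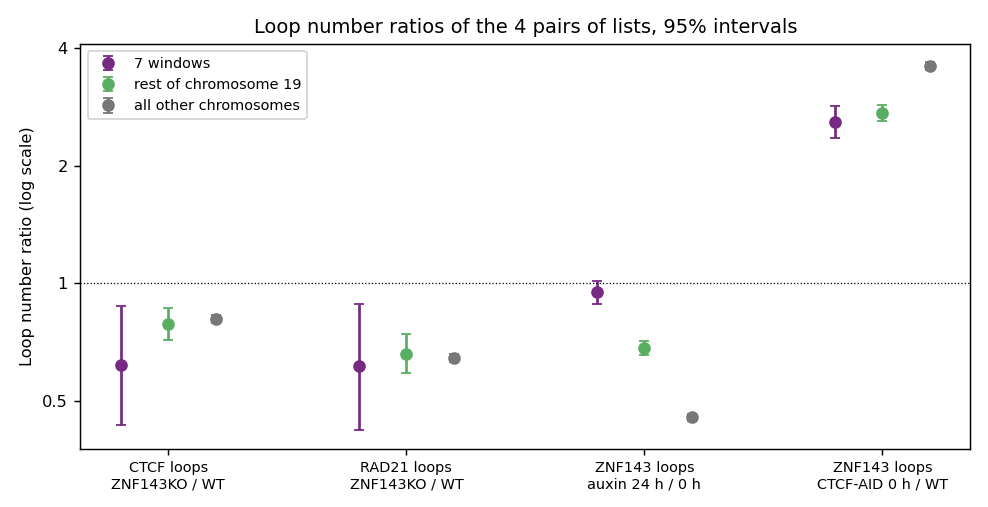
Ratio of loop numbers between the 2 lists of each comparison (vertical axis, logarithmic), with 95% intervals from the binomial split, for the 7 windows, the rest of chromosome 19 and all other chromosomes. The ZNF143 ratio of 24 h over 0 h was 0.948 in the windows, 0.683 in the rest of chromosome 19 and 0.453 elsewhere, and in both comparisons of ZNF143KO with wild-type cells the window interval overlaps that of the rest.

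The second comparison asked how ZNF143 loops differ after CTCF breakdown. ZNF143 window loops numbered 1682 at 0 h and 1595 at 24 h of auxin, a ratio of 0.948 (0.885 to 1.02). The ratio was 0.865 (0.792 to 0.943) with both anchors inside and 1.12 (1.02 to 1.24) at a minimum count of 3, so it has no fixed direction by itself. Over the same time the rest of chromosome 19 went from 6269 to 4281 loops, a ratio of 0.683 (0.657 to 0.71), and other chromosomes from 32454 to 14711, a ratio of 0.453 (0.445 to 0.462). The window ratio was 1.39 times that of the rest of the chromosome (1.28 to 1.5). Since window loops were longer and the ratio was higher for the longest than for the shortest loops in all 3 regions, the ratio was also pooled over 6 classes of span, which gave 1.26 (1.17 to 1.37).

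Over the 7 windows together, ZNF143 loops of 0 h were found again at 24 h more often than in the rest of the chromosome. That did not hold for windows 1, 2 and 6, or for windows 1, 2, 3 and 6 pooled. In window 3 the share found again was 42.9% (26.5 to 60.9), an interval that takes in the 38.8% of the rest. Of the 1682 loops, 750 were not found at 24 h (44.6%, 42.2 to 47), against 61.2% in the rest of chromosome 19 and 75.3% of the whole list. The difference between windows and rest was -16.6 percentage points (-19.2 to -13.9). New loops at 24 h were 674 of 1595 (42.3%, 39.9 to 44.7), against 46.7% in the rest and 54.6% of that list. In each class of count at 0 h a larger share was found again in the windows: 36.9% against 26.5% at a count of 2, 66.6% against 47.4% at 3 to 4, 78.5% against 62.7% at 5 to 9, 91.9% against 75.1% at 10 to 19, and 61 of 62 (98.4%, 91.4 to 99.7) against 152 of 184 (82.6%, 76.5 to 87.4) at 20 or more.

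The summed count of window loops was 8632 at 0 h and 11153 at 24 h, a ratio of 1.29, while the ratio was 0.935 in the rest of the chromosome and 0.616 elsewhere. Of the 932 window loops found again, 507 had a higher count at 24 h, 213 a lower one and 212 the same. In the rest of the chromosome the tally was close to this, with 1254 higher, 570 lower and 610 the same of 2434. The number of window loops with a count of at least 20 went from 62 to 105, a ratio of 1.69 (1.23 to 2.36), against 1.1 (0.899 to 1.35) in the rest. At a count of at least 10 it went from 185 to 278, a ratio of 1.5 (1.24 to 1.82), against 513 to 579 in the rest, a ratio of 1.13 (1 to 1.27). At a minimum count of 10 the window ratio was 1.33 times that of the rest (1.06 to 1.67). These counts are not scaled to a common depth, and the depth of the libraries is unknown, so the window ratios are to be read against those of the rest of the same lists.

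**Figure D5:**
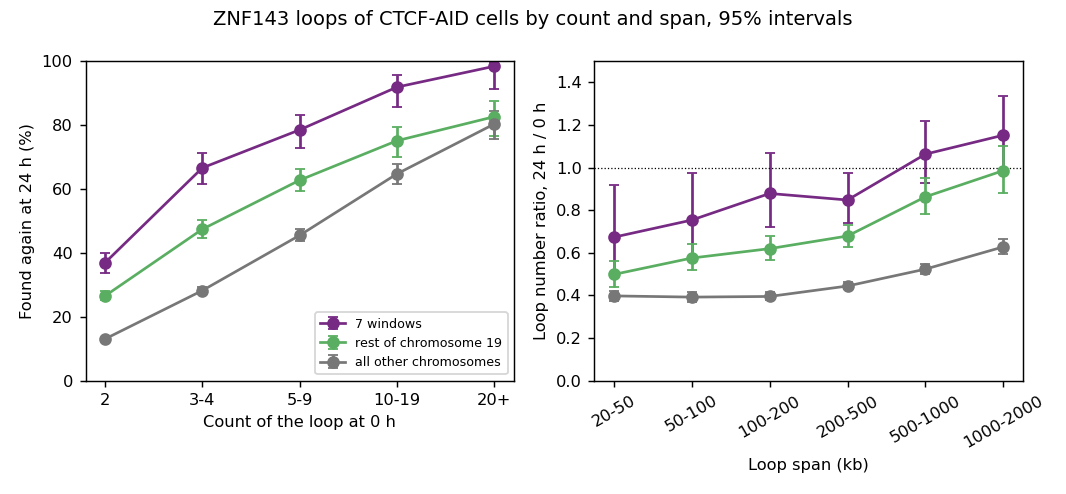
Left, share of 0 h ZNF143 loops found again at 24 h (vertical axis, %) by count class, with 95% Wilson intervals. Right, ratio of loop numbers (24 h over 0 h) by class of span in kb, with 95% intervals; window points lie above those of the rest of chromosome 19 in every class of both panels.

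The windows differed among themselves. The 24 h over 0 h ratio was 1.04 (0.901 to 1.2) in window 4, 1.02 (0.862 to 1.21) in window 5 and 0.908 (0.822 to 1) in window 7. It was 0.5 (0.296 to 0.824) in window 2, where loops went from 50 to 25, and 0.455 (0.192 to 1) in window 1, from 22 to 10. Windows 3 and 6 had ratios of 1.18 (0.691 to 2.02), from 28 to 33, and 1.02 (0.749 to 1.4), from 84 to 86. In windows 4, 5 and 7 together 58.7% (56.2 to 61.2) of 0 h loops were found again, against 28.8% (22.8 to 35.7) of the 184 in windows 1, 2, 3 and 6. The rest of the chromosome, at 38.8% (37.6 to 40), lay between them, and the 3 intervals do not overlap. The summed count ratio was 1.31 in the first set and 0.985 in the other.

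By span, the ratio was lowest for the shortest window loops. It was 0.673 (0.49 to 0.92) for spans of 20 to 50 kb, 0.848 (0.738 to 0.973) at 200 to 500 kb, 1.06 (0.93 to 1.22) at 500 to 1000 kb and 1.15 (0.993 to 1.34) at 1000 to 2000 kb. The rest of chromosome 19 had 0.498, 0.679, 0.863 and 0.986 in the same classes. New window loops at 24 h had a median span of 756 kb, loops found in both lists 380 kb and loops not found again 540 kb.

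Single loops changed in either direction at shared anchors. The best supported window loop missing at 24 h, with a count of 20 at 0 h, joined chr19:36704648-36707254, one of the 6 most joined anchors, to chr19:36735704-36738803 over 31.3 kb. In window 6 the loop from chr19:53983438-53984840 to chr19:54022829-54025040 had a count of 16 at 0 h and was not listed at 24 h. At 24 h the same second anchor had loops out of the window that were not listed at 0 h. They ran to chr19:54370156-54371793 with a count of 16 and to chr19:54480165-54481709 with a count of 14, over 347 and 457 kb. Wild-type cells listed the loop to chr19:54480165-54481709 with a count of 2, and neither of the missing loops named so far. In window 4 a loop of 198 kb from chr19:37663139-37664912 to chr19:37861066-37862964 had a count of 16 at 24 h, was not listed at 0 h and had a count of 2 in wild-type cells. An anchor of the last loop, chr19:37861066-37862964, lost a loop of 285 kb to chr19:38145536-38147647 that had a count of 14 at 0 h.

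CTCF-AID cells without auxin were set against wild-type cells as a check of the line. The 0 h list was longer everywhere, with 2.59 times as many window loops (2.36 to 2.84), 2.72 times in the rest of chromosome 19 and 3.59 times elsewhere. With the CTCF-AID counts divided by 2 and loops then below 2 left out, the window ratio was 1.06 (0.954 to 1.18). The ratio of the window value to that of the rest was 0.95 (0.857 to 1.05) on counts as deposited, 1.18 (1.04 to 1.34) on counts divided by 2, 0.809 (0.72 to 0.91) with both anchors inside and 0.78 (0.701 to 0.868) pooled over span, so no direction is read from it. Of the 650 wild-type window loops, 165 were not found at 0 h (25.4%, 22.2 to 28.9), against 28.2% in the rest and 40.4% of the whole list. Of the 1682 at 0 h, 1146 were not in the wild-type list (68.1%), against 80.6% of that list. The 2 CTCF-AID lists held mostly even counts, with 898 window loops at 2, 93 at 3 and 269 at 4 at 0 h, against 270, 148 and 62 in wild-type cells. Their counts were therefore taken as on another scale, and counts of single loops are compared only between 0 h and 24 h. The best supported wild-type window loop absent at 0 h had a count of 32 and joined chr19:56616009-56620480 to chr19:56651574-56654677, the most joined anchor of all windows.

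Zinc-finger genes of 1 cluster resemble each other, so reads from their repeated parts may not be placed. How the authors treated reads with several matches was not given in the sources used here, and no map of unique sequence in the files' build was used. As a limited measure, 9 of the 192 zinc-finger genes with a promoter (4.69%) shared an exact stretch of 50 bases, on either strand, with a promoter that does not overlap theirs in the genome, against 3.89% of all genes. In window 3, the sparsest in anchors, it was 1 of 27 genes, in window 6 it was 3 of 33, in window 2 it was 2 of 23, and in window 4 it was none of 27. This bears on promoters only. Whether mapping contributed to the few anchors of window 3 was not tested.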

How the data were processed

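Loops were listed for 7 HiChIP libraries of HEC-1-B cells and derived lines, and groups were taken from the sample labels. For each library the authors deposited a list of loops, where a line gives 2 anchors and a whole-number count, read here as the number of supporting read pairs. Counts start at 2 and spans run from 20 kb to 2 Mb, so a loop missing from a list was not shown to be absent. HiC-Pro and the build hg19 (GRCh37) are named per the submitters' processing notes, while the loop caller, its filters, the treatment of reads with several matches and any pooling of runs were not given in the sources used here. Summed counts of a list, 33460 to 143119, are not library depth, which is unknown. Over the windows they ran from 167 to 11153.

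Windows, loops and gene sets were chosen with earlier results of these data known. Anchors were matched between lists after an extension of 5 kb, with an overlap of at least 1 bp, and the matching was tested on simulated data. Shares carry 95% Wilson intervals, their differences Newcombe intervals, ratios of loop numbers exact binomial intervals, and ratios of ratios conditional odds ratio intervals. The loops and anchors named are those with the highest count in each window and list, the 3 with the highest counts among those found in only 1 list of each of the 4 pairs, and the most joined anchors. Of these, the ones that carry a comparison are printed.

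Zinc-finger genes of a window were the coding genes of RefSeq (GRCh38.p14) with zinc-finger symbols lying in order between an outer pair set by hand, such as ZNF404 and ZNF180 for window 5. No position was converted between builds, so sets at window edges are approximate. A promoter was in the table for 10 of 12, 23 of 24, 27 of 35, 27 of 29, 15 of 19, 33 of 40 and 57 of 66 such genes in windows 1 to 7. The planned lookup of genes at single anchors was not made, since no annotation of hg19 was used here. Python 3.11.15 was used with pandas 2.3.3, scipy 1.17.1 and statsmodels 0.14.6. Alternatives were a minimum count of 3, both anchors inside, windows narrowed by 0.1 Mb, extensions of 0 and 10 kb and CTCF-AID counts divided by 2. Added after seeing the data were minimum counts of 5 and 10, lengths without anchor-free stretches of 1 Mb or more, and pooling over classes of span.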

Additional observations from a re-analysis of the deposited data

How the results depend on the processing

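Of 94 alternative values, 55 stayed within the interval or spread of the reported value, and 39 moved beyond it. No value whose reported interval excluded 1 (ratios) or 0 (differences) changed sides, while 3 ratios whose interval included 1 did: the window ratio of 24 h over 0 h, the ratio of 0 h over wild type set against the rest, and wild-type ZNF143 loops per Mb (1.01 in narrowed windows, and 1.04 without anchor-free stretches, which was added after seeing the data). The values that moved were as follows. For the CTCF loop number ratio of ZNF143KO over wild-type cells (reported 0.618), a minimum count of 3 gave 0.412 and both anchors inside windows 0.433. For the ZNF143 ratio of 24 h over 0 h (reported 0.948), minimum counts of 3, 5 and 10 gave 1.12, 1.32 and 1.5, halved CTCF-AID counts 1.17 and both anchors inside 0.865. Its ratio to the rest of chromosome 19 (reported 1.39) was 1.27 with both anchors inside and 1.26 pooled over span. The difference in the share not found (reported -16.6 percentage points) was -22.3 with both anchors inside, -20.01 with no extension and -13.1 with 10 kb.

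For CTCF-AID at 0 h over wild-type ZNF143 (reported 2.59), minimum counts of 3 and 10 gave 2.06 and 2.89, both anchors inside 2.2 and halved counts 1.06. Its ratio to the rest (reported 0.95, interval including 1) was 1.15, 1.25 and 1.33 at minimum counts of 3, 5 and 10, 1.18 with halved counts, 0.809 with both anchors inside and 0.78 pooled over span. It fell on either side of 1, so no direction is read from it. Its difference in the share not found (reported -2.78 points) was -7.21 with both anchors inside, -9.11 with no extension and -6.58 with halved counts.

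The windows' shortfall of wild-type ZNF143 loops found among CTCF loops (reported -9.77 points) was -5.77, -5.06 and -5.06 at minimum counts of 3, 5 and 10, -6.46 with no extension and -13.9 with 10 kb. Among RAD21 loops (reported -8.24) it was -6.37, -4.25 and -2.95, then -5.89 and -11.7. At a minimum count of 10 both intervals included 0, on 64 window loops. Loops per Mb in windows over the rest with both anchors inside were 0.746 for ZNF143, 0.217 for CTCF and 0.273 for RAD21, and narrowed windows gave 0.226 for CTCF. Counts of 5 and 10 and the pooling over span were chosen after seeing the data, and minimum counts of 5 and 10 are left out of these totals where a list kept under 20 window loops. Among those, RAD21 window loops of at least 5 counts went from 14 to 9 in ZNF143KO cells (0.643, 0.245 to 1.59), against 0.314 in the rest of chromosome 19, and CTCF window loops from 16 to 4 (0.25, 0.0608 to 0.775), against 0.329.

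No paired analysis was possible because each group held 1 library. The CTCF and RAD21 results rest on 49 to 89 window loops, mostly of low count.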
